A study of Homo sapiens with 4 samples.

Results

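Cholesterol and fatty acids are made by enzymes whose genes are switched on by the same pair of transcription factors. The genes of these pathways were followed here in BICR10 cells with and without silencing of YEATS2. The members were chosen with earlier results of these data known. They were taken by symbol, as the rows of the count tables named for 36 genes out of the 60623 genes counted. They fall into 6 mevalonate enzymes, 12 sterol enzymes, 8 fatty-acid enzymes, 5 regulators of the sterol regulatory element-binding proteins (SREBPs), 2 sterol trafficking genes and 3 efflux and uptake genes that are targets of the liver X receptors (LXRs). The list does not hold every gene of these pathways. The cells, BICR10, are an established line from a human head and neck cancer, and had received lentivirus with a control hairpin (shControl) or with a hairpin against YEATS2 (shYEATS2), followed by puromycin selection, which both groups shared. YEATS2 encodes a reader of acylated histones. Each group had 2 libraries of polyadenylated RNA. The study used more than 1 hairpin against YEATS2, and which of them was present in which shYEATS2 library is not given in the sources used here.

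SREBF2 encodes the SREBP that mainly drives cholesterol synthesis, and SREBF1 encodes the one that mainly drives fatty-acid synthesis. Both proteins are held in the endoplasmic reticulum by SCAP and the INSIG proteins while sterols are plentiful, and are carried to the Golgi and cut into active factors when sterols run low. The LXRs work on the other side of this balance: they sense oxidised sterols and raise genes for cholesterol efflux, and they also raise SREBF1.

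Total counts on genes were 39824898 to 47297970 in shControl and 11334133 to 24072396 in shYEATS2, so depth differed between the groups and cannot be told apart from the knockdown. Levels are given as CPM, counts scaled to a common total on genes after TMM scaling. The targeted gene was lower in both shYEATS2 libraries: YEATS2 had 66.1 and 66.7 CPM with the control hairpin and 29.2 and 29.1 CPM with the YEATS2 hairpin, a log2 fold change of −1.19 ± 0.08 (SE). The markers listed for epithelial cells went against the labelled origin in part. KRT8 and KRT18 were at 266 and 110 CPM in shControl, whereas EPCAM was at 1.01 CPM, CDH1 at 0.335 CPM, TP63 had at most 3 counts in any library and KRT19 had 0 counts in all 4. Markers listed for fibroblasts were abundant, and 7 of the 8 were called lower in shYEATS2, 0 higher, by the edgeR test described with the members, which called 23.6% of all tested genes lower and 22.6% higher; their summed level was 7212 to 7302 CPM in shControl and 2224 to 2363 CPM in shYEATS2. The summed level of the 8 epithelial markers was 392 to 398 CPM in shControl and 191 to 206 CPM in shYEATS2, with 5 called lower and 1 higher. KRT8 and KRT18 made up most of this sum. The marker called higher was CDH1, with a mean of 0.335 CPM in shControl and 2.48 CPM in shYEATS2 (2.91 ± 0.36 SE). KRT5 had the largest fall, from a mean of 15.7 to 1.19 CPM (−3.78 ± 0.18 SE). The 4 leukocyte markers summed to at most 1.79 CPM in any library, with CD3E at 0, and the 3 endothelial markers to at most 2.21 CPM. The part of these marker shifts in the results on lipid genes was not tested. In bulk RNA, fewer cells of a type and less RNA per cell cannot be told apart.

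Promoter sequence is where the SREBPs act, so the stretches before the start sites of 5 members are shown: SREBF2 and FDPS, which hold the letters of an SREBP element, and HMGCS1, MSMO1 and SCD, which are among the members with the lowest fold changes. The sequences are from RefSeq (GRCh38.p14), 5′ to 3′ on the strand of the gene, and end before the first base of any annotated exon of a protein-coding gene. Capitals mark matches to TCACNCNAC, an SRE-like pattern, or to CCAAT, the box bound by NF-Y, an SREBP partner, on either strand.
SREBF2, chr22:41832855-41833104, plus strand: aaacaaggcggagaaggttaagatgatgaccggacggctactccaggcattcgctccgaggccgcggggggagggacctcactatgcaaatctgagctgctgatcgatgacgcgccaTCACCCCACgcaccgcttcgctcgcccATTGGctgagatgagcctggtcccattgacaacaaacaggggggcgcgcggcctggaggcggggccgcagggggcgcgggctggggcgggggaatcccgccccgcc
FDPS, chr1:155308616-155308747, plus strand: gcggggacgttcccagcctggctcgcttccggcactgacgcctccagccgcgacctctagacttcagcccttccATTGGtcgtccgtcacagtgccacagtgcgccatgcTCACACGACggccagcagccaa
HMGCS1, chr5:43313513-43313662, minus strand: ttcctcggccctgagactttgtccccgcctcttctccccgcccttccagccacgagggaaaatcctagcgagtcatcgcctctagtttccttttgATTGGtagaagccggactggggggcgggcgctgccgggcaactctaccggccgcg
MSMO1, chr4:165327419-165327666, plus strand: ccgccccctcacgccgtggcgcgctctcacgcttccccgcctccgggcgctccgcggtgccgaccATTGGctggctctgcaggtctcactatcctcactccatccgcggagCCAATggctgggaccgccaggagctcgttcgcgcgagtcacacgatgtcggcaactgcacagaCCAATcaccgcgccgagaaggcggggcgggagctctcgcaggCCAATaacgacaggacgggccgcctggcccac
SCD, chr10:100346983-100347232, plus strand: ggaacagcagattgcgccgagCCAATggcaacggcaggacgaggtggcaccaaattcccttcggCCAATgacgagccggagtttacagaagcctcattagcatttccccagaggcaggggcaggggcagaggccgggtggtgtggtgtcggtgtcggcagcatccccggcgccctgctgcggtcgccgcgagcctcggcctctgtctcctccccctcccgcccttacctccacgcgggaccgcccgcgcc

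Of the 36 members, 32 had a promoter in the RefSeq table. FDFT1, SQLE, ABCG1 and FASN were those without one. In the 250 bases before the start, the SRE-like letters were present in 5 of the 32 members (15.6%) and in 678 of 27305 genes of the table (2.48%). The members with a match were FDPS, HSD17B7, FADS2, ACSS2 and SREBF2. In SREBF2 the match lay 133 to 125 bases before the start, in FDPS 140 to 132 bases before it and in HSD17B7 98 to 90 bases before it. The CCAAT letters were present in 21 of the 32 members (65.6%) and in 37% of all genes, and matches to the 2 patterns do not overlap in the printed sequences. A match describes letters, not a bound site. The 5 members with the SRE-like letters had log2 fold changes from −0.72 for FADS2 to 0.17 for SREBF2, and HMGCS1, MSMO1 and SCD had CCAAT letters and no SRE-like match in this window.

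Most of the synthesis genes were lower after YEATS2 silencing, and the efflux genes were higher. All 36 members had enough counts for a test. With edgeR's quasi-likelihood test and Benjamini-Hochberg adjustment over 17058 genes (called at an adjusted p under 0.05), 23 members were lower in shYEATS2 (63.9%) and 5 were higher (13.9%), where 23.6% of all tested genes were lower and 22.6% higher. The median log2 fold change of the members was −0.27, beside −0.01 for all tested genes. As the members were chosen with earlier results known, these shares and medians are a description, not a test of the set. In 26 members both libraries of shYEATS2 were under both of shControl, and in 5 they were over them, against 36.3% and 35.3% of all tested genes, and in the remaining 5 the groups overlapped. DESeq2 called 18 members lower and 4 higher, where its share over all tested genes was 17.3% lower and 16.5% higher. Changes of at least 0.5 on the log2 scale were seen in 13 called members, 12 of them lower. The share of all tested genes called at such sizes was not counted. Of all tested genes, called or not, 13.9% had a lower fold change than MVK (−0.53) and 4.5% a lower one than TM7SF2 (−1.01). The called members with changes of at least 1 were HMGCS1, SCD and TM7SF2, which were lower, and ABCG1, which was higher. A two-sided exact permutation test of 2 libraries against 2 can reach no p under 0.333, so the calls depend on edgeR's sharing of variance between genes. The paper describes its experiments in general as done in independent biological replicates unless stated otherwise. It does not say for these RNA-seq libraries that the 2 of a group came from separate cultures. The p-values therefore measure the spread between these libraries, which may be technical. Scaling by library totals alone moved the median of all tested genes from −0.01 to 0.13 and the share of calls that were higher from 49% to 67.9%. Under it 13 members were lower and 5 higher, and PMVK, FDFT1, SQLE, NSDHL and STARD4, none of which was called, changed sign. The 10 lower calls lost under it were those of MVD, IDI1, FDPS, LSS, TM7SF2, LBR, HSD17B7, DHCR7, ACLY and SCAP. After each library was thinned to 11334133 counts, the smallest total, 19 members were lower and 5 higher. MVD (−0.21), FDPS (−0.13), LBR (−0.17) and HSD17B7 (−0.16) then lost their calls, TM7SF2 had too few counts for the test and INSIG2 gained a call. Without shControl replicate 1 the higher calls fell to 2, and without shControl replicate 2 to 3.

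**Figure D1:**
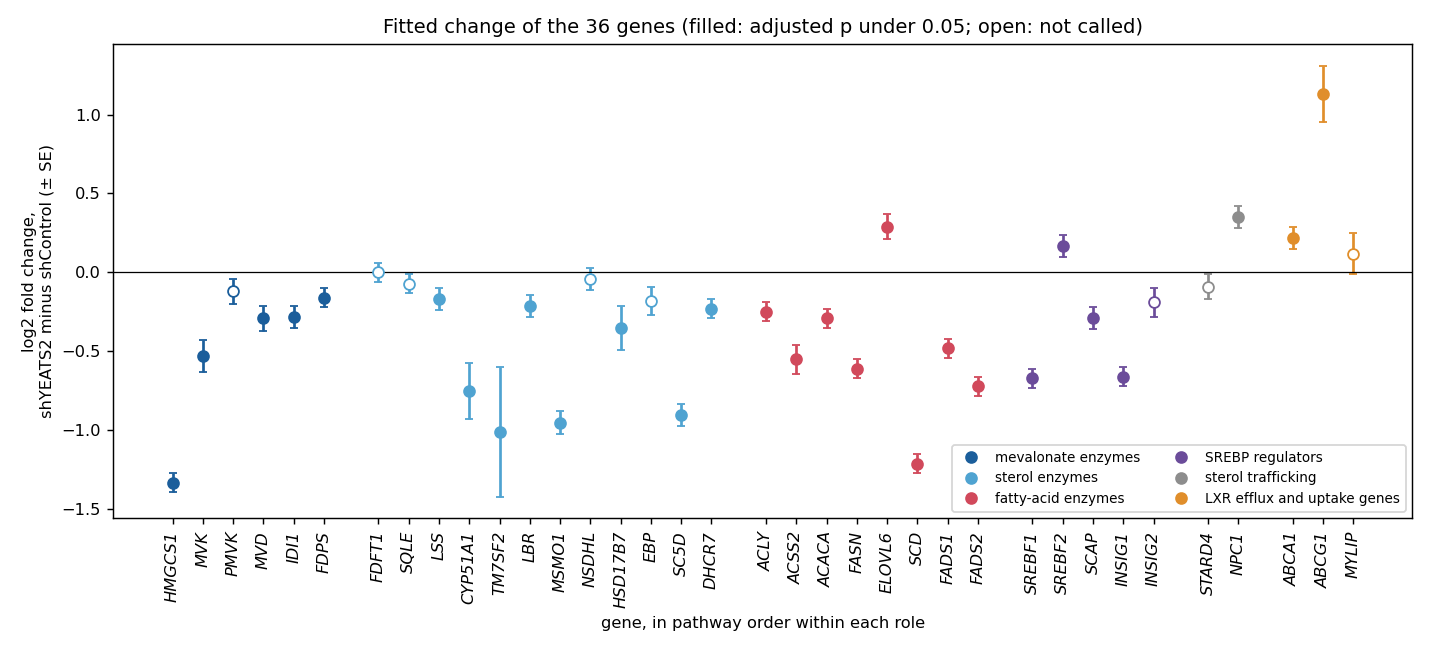
Fitted log2 fold change (shYEATS2 minus shControl, vertical axis, ± SE) of the 36 genes, coloured by role and in pathway order along the horizontal axis; filled points were called at an adjusted p under 0.05. HMGCS1 (−1.33) and SCD (−1.21) lie lowest, ABCG1 (1.13) lies highest, and most enzymes lie under 0.

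Together the members took 0.552% and 0.555% of the gene counts in shControl, against 0.415% and 0.397% in shYEATS2. Their levels summed to 5806 ± 67.6 CPM in shControl against 3882 ± 92.2 CPM in shYEATS2 (each ± SD, n = 2), or 66.9% of the control sum. SCD alone made up 51.7% of this fall, so the sum mainly follows that gene. Per kilobase of exon, the control levels spanned a wide range, with SCD first at 333.7 CPM per kb, followed by FASN at 71.94 and ACLY at 68.12. The SDs of FASN and ACLY, 1.52 and 2.11 CPM per kb, did not reach the gap between their means. ABCG1 at 0.464 and TM7SF2 at 0.336 CPM per kb were the least abundant members. The exon length is the union over all annotated transcripts, which lowers the value of genes with many long isoforms. Level and change were weakly related across the 36 genes, which share libraries and depth (Spearman's rho −0.18, a description without a test).

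**Figure D2:**
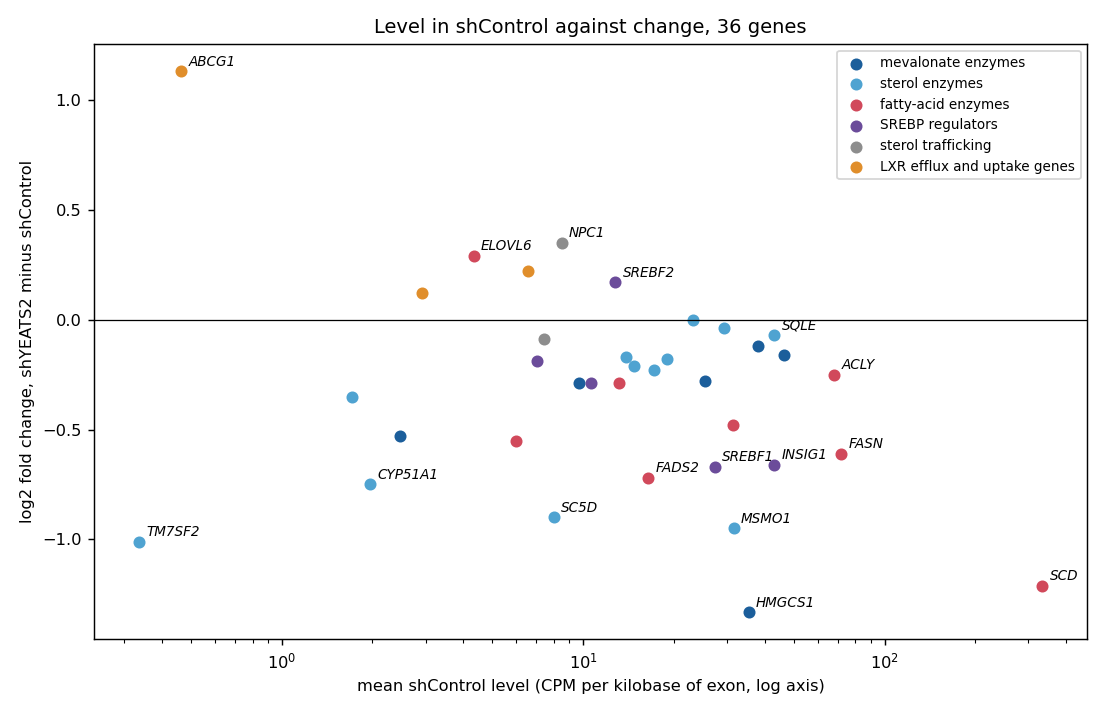
Mean control level (horizontal log axis, CPM per kilobase of exon) against the fitted log2 fold change (vertical axis) of the 36 genes, coloured by role. Large changes occur at both ends of the scale: TM7SF2 and ABCG1 at under 1 CPM per kb, SCD at 333.7.

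The mevalonate enzymes turn acetyl-CoA units into farnesyl pyrophosphate, the last intermediate shared by sterols and prenyl groups. Of the 6, 5 were lower (83.3%, beside 23.6% of all tested genes), 0 higher and PMVK was not called. The median log2 fold change was −0.29. HMGCS1, the synthase that makes HMG-CoA at the entry of the pathway, stood at 231 and 239 CPM in shControl and at 91.6 and 96.3 CPM in shYEATS2. The groups were far apart, with 39.9% of the control level remaining (log2 fold change −1.33 ± 0.06 SE, edgeR adjusted p = 2.8e-28). The gene (ENSG00000112972) lies on the minus strand at chr5:43287470-43313512 of GRCh38. It had the lowest fold change of all 36 members, and 2.57% of the tested genes had a lower one. The later kinases and the isomerase moved less. MVK, mevalonate kinase, was at 21.9 and 22.6 CPM in shControl and at 14.8 and 16.2 CPM in shYEATS2 (−0.53 ± 0.10, edgeR adjusted p = 1.0e-05). MMAB overlaps MVK on the opposite strand, at 25.6 and 23.9 CPM against 21.4 and 21.1 CPM, so the MVK counts are less certain. PMVK, the next kinase, was at 41.3 and 34.8 CPM against 34.4 and 36.1 CPM, so its groups overlapped (−0.12 ± 0.08, edgeR adjusted p = 0.258). MVD, the decarboxylase, at −0.29 ± 0.08, and IDI1, the isomerase, at −0.28 ± 0.07, fell by nearly equal amounts. FDPS, which makes farnesyl pyrophosphate, was at 179 and 167 CPM against 158 and 151 CPM, a small separation that edgeR called (−0.16 ± 0.06, adjusted p = 0.029) and DESeq2 did not. HMGCS1 made up 36.8% and 38.7% of the summed level of these enzymes in shControl and 21.7% and 22.4% in shYEATS2. Without it the sum in shYEATS2 was 85.8% of control, and with it 68.5%. The FDPS call was lost without shControl replicate 1 (−0.11) or shControl replicate 2 (−0.22), and that of MVD without shControl replicate 2 (−0.27).

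The sterol enzymes join farnesyl units into squalene, close the ring to lanosterol and trim lanosterol to cholesterol. Of the 12, 8 were lower (66.7%, beside 23.6% of all tested genes), 0 higher and 4 not called, with a median of −0.22. DESeq2 called 4 of them lower, and 17.3% of all tested genes. The steps at the head of this branch were nearly level. FDFT1, squalene synthase, stood at 116 and 118 CPM in shControl and at 119 and 114 CPM in shYEATS2, with overlapping groups and a log2 fold change of −0.00 ± 0.06. SQLE, squalene epoxidase, was at 185 and 186 CPM against 176 and 179 CPM, a gap that did not pass the test (−0.07 ± 0.06, edgeR adjusted p = 0.390). SQLE was among the abundant members, at 43.12 CPM per kb in shControl. LSS, which closes the lanosterol ring, was lower by a small amount (−0.17 ± 0.07, edgeR adjusted p = 0.025).

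Larger falls came after lanosterol. MSMO1, the methylsterol oxidase, was at 85.4 and 94.9 CPM in shControl and at 47.7 and 45.1 CPM in shYEATS2 (−0.95 ± 0.07, edgeR adjusted p = 3.0e-18). SC5D, a sterol desaturase near the end of the route, was at 79.2 and 81.6 CPM against 40.1 and 46.9 CPM (−0.90 ± 0.07, edgeR adjusted p = 1.1e-16). Of the control level, 51.7% remained for MSMO1 and 53.4% for SC5D, and no library of one group reached the other. MSMO1 acts with NSDHL and HSD17B7 to remove methyl groups from the sterol ring, and the 3 genes had unequal values. NSDHL was at 58.7 and 58.1 CPM in shControl and at 55.8 and 58 CPM in shYEATS2 (−0.04 ± 0.07, edgeR adjusted p = 0.669), and HSD17B7 was at 7.98 and 8.44 CPM against 6.67 and 6.11 CPM (−0.35 ± 0.14, edgeR adjusted p = 0.042). The differences between these 3 genes were not tested. DHCR7, a reductase of the final steps, was lower (−0.23 ± 0.06, edgeR adjusted p = 0.002), and EBP, the sterol isomerase, had −0.18 ± 0.09 with overlapping groups.

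CYP51A1, the lanosterol demethylase, was at 9.85 and 6.54 CPM in shControl and at 5.37 and 4.16 CPM in shYEATS2 (−0.75 ± 0.18, edgeR adjusted p = 9.2e-04). Its shControl libraries differed from each other by more than the nearest libraries of the 2 groups did, and without shControl replicate 1 (−0.42) or shYEATS2 replicate 2 (−0.63) the call was lost. TM7SF2 and LBR encode reductases for the same double bond. TM7SF2 had 56 and 40 counts in shControl and 14 and 7 counts in shYEATS2 (−1.01 ± 0.41, edgeR adjusted p = 0.036), and leaving out any 1 library ended the call, with values from −1.12 to −0.90. LBR, also a protein of the nuclear envelope, was the abundant one, at 82.1 and 86.7 CPM against 67 and 80.1 CPM (−0.21 ± 0.07, edgeR adjusted p = 0.012). DESeq2 did not call TM7SF2, LBR, LSS or HSD17B7. Leaving out 1 library ended the calls of LBR without shControl replicate 2 (−0.18) or shYEATS2 replicate 1 (−0.09), of LSS without shControl replicate 1 (−0.20) or shControl replicate 2 (−0.16), and of DHCR7 without shControl replicate 1 (−0.21). HSD17B7 lost its call without any 1 library, at −0.44 to −0.30, and EBP gained one without shControl replicate 2 (−0.32) or shYEATS2 replicate 1 (−0.23), and without the filter on low counts (−0.23). CYP51A1 overlaps AKAP9 on the opposite strand, TM7SF2 overlaps VPS51 on its own strand, and HSD17B7 has a pseudogene copy with 76 and 62 counts in shControl, so these counts are less certain.

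**Figure D3:**
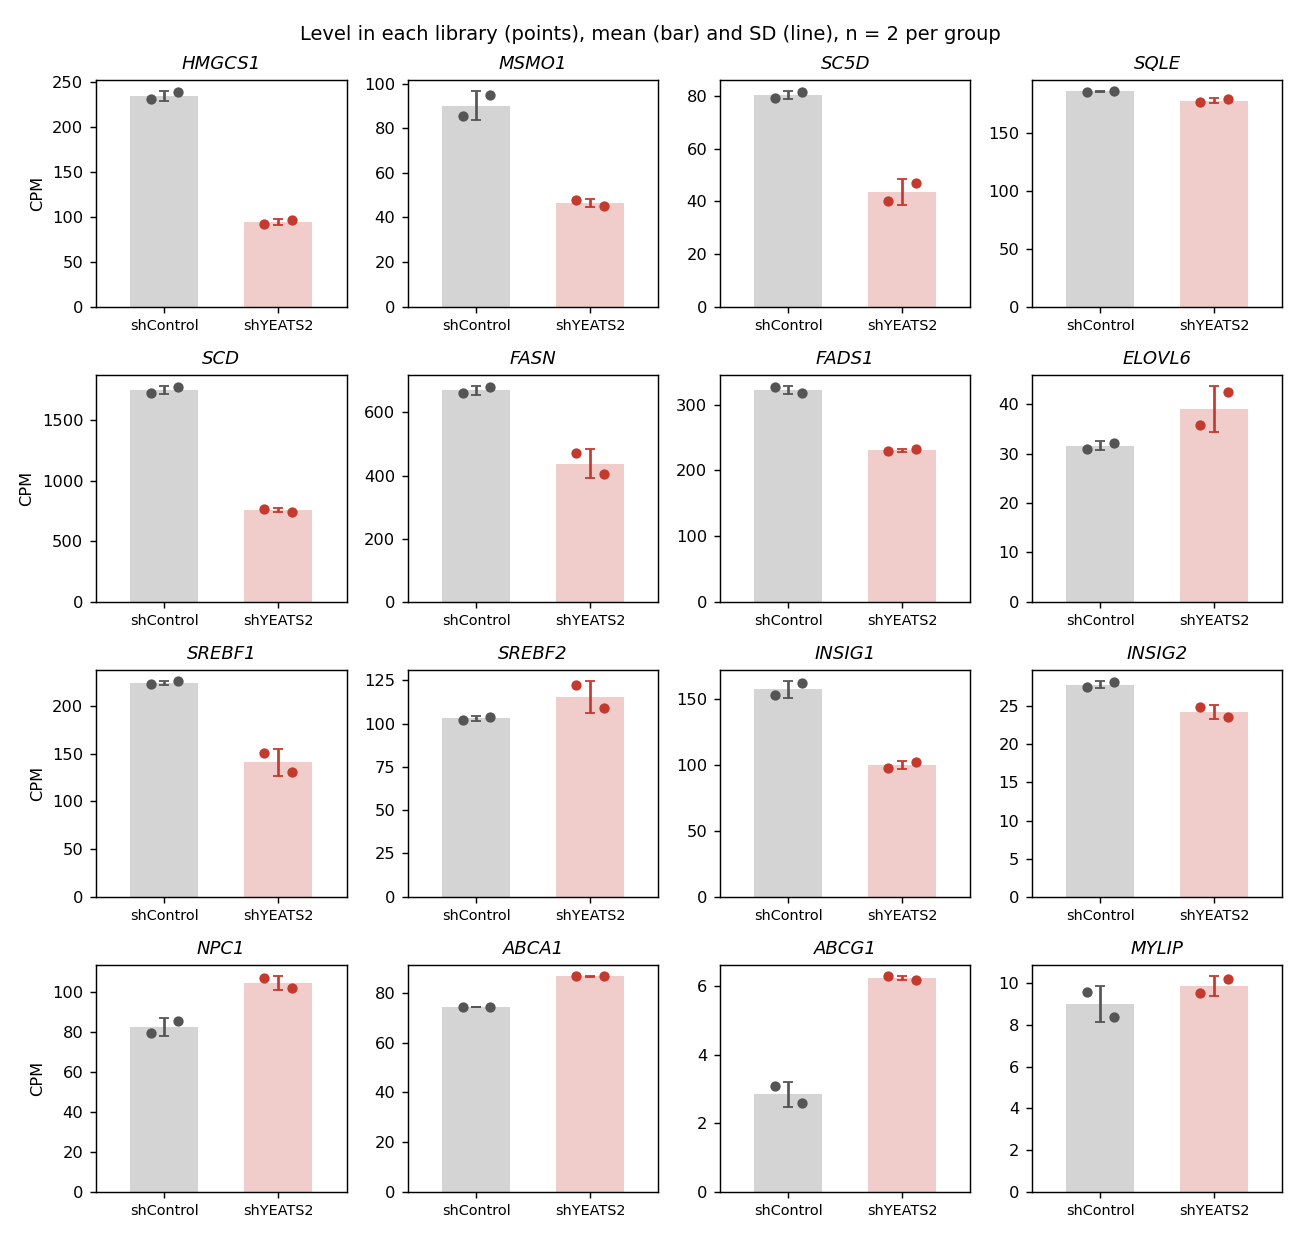
Level of 16 members in each library (points, CPM, vertical axis from 0), with the mean (bar) and SD (line) of the 2 libraries per group. HMGCS1, MSMO1, SC5D, SCD and FASN are well separated and lower in shYEATS2, SQLE lies nearly level, ELOVL6, NPC1, ABCA1 and ABCG1 are higher, and MYLIP overlaps.

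The fatty-acid enzymes had the lowest median of the 6 roles, −0.51, and all 8 were called by both edgeR and DESeq2, 7 lower and ELOVL6 higher. By edgeR, 87.5% were thus lower and 12.5% higher, beside 23.6% and 22.6% of all tested genes. SCD, the stearoyl-CoA desaturase that makes monounsaturated fatty acids, stood at 1726 and 1774 CPM in shControl and at 769 and 743 CPM in shYEATS2. The groups were well apart, and 43.2% of the control level remained (−1.21 ± 0.06, edgeR adjusted p = 5.8e-28). SCD (ENSG00000099194) lies on the plus strand at chr10:100347233-100364826. FASN, fatty acid synthase, was at 661 and 681 CPM against 470 and 406 CPM (−0.61 ± 0.06, edgeR adjusted p = 6.8e-13). Of the enzymes that supply the synthase with carbon, ACLY and ACACA fell less, and ACSS2 fell by nearly as much as FASN. Differences between these genes were not tested. ACLY, which makes cytosolic acetyl-CoA from citrate, was at 347 and 363 CPM against 301 and 295 CPM (−0.25 ± 0.06, edgeR adjusted p = 2.6e-04), and ACACA, acetyl-CoA carboxylase, at 167 and 176 CPM against 142 and 139 CPM (−0.29 ± 0.06, edgeR adjusted p = 8.0e-05). ACSS2, which makes acetyl-CoA from acetate, fell from 32 and 31 CPM to 22 and 21 CPM (−0.55 ± 0.09, edgeR adjusted p = 6.1e-07). GGT7 overlaps ACSS2 on the opposite strand and was also lower (−0.75 ± 0.11), so the ACSS2 counts are less certain.

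ELOVL6, the elongase that lengthens palmitate, was the exception, at 30.9 and 32.2 CPM in shControl and 35.8 and 42.4 CPM in shYEATS2 (0.29 ± 0.08, edgeR adjusted p = 0.003). Its groups did not overlap, but its call was lost without shControl replicate 1 (0.26) or shYEATS2 replicate 2 (0.18). Within each library the ratio of SCD to ELOVL6 per kilobase went from 77.5 and 76.3 in shControl to 29.8 and 24.3 in shYEATS2. The polyunsaturated desaturases were both lower. FADS2 was at 176 and 171 CPM in shControl and at 112 and 98.2 CPM in shYEATS2 (−0.72 ± 0.06, edgeR adjusted p = 4.3e-15), and FADS1 at 327 and 318 CPM against 229 and 232 CPM (−0.48 ± 0.06, edgeR adjusted p = 2.2e-10). Their ratio, FADS1 to FADS2 per kilobase, was 1.91 and 1.91 in shControl and 2.11 and 2.44 in shYEATS2. FADS1 and FADS2 overlap on opposite strands, and FEN1 lies within FADS2 on its own strand, so the counting could have split or dropped reads between them; the strand setting of the counting is not given in the sources used here. SCD made up 49.8% and 50% of the summed level of the 8 enzymes in shControl and 37% and 37.6% in shYEATS2. The sum in shYEATS2 was 57.9% of control with SCD and 72.5% without it.

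Among the regulators, SREBF1 and SREBF2 went in opposite directions. SREBF1 stood at 223 and 226 CPM in shControl and at 151 and 131 CPM in shYEATS2 (−0.67 ± 0.06, edgeR adjusted p = 4.0e-14). Its gene (ENSG00000072310) lies on the minus strand at chr17:17810399-17837002. RAI1 overlaps SREBF1 on the opposite strand and was nearly level (0.09 ± 0.07), so the SREBF1 counts are less certain. SREBF2 (ENSG00000198911, plus strand, chr22:41833105-41907306) was at 102 and 104 CPM against 122 and 109 CPM (0.17 ± 0.07, edgeR adjusted p = 0.027), a small rise without overlap that DESeq2 did not call and that was not called without shControl replicate 1 (0.14), shControl replicate 2 (0.18) or shYEATS2 replicate 1 (0.07). The ratio of SREBF1 to SREBF2 per kilobase was 2.15 and 2.12 in shControl and 1.21 and 1.18 in shYEATS2, so the groups were separated by more than the spread within them. SREBF1 has more than 1 promoter and protein form, which gene counts do not separate.

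INSIG1, a retention factor that is itself a target of the SREBPs, was at 153 and 162 CPM in shControl and at 97.5 and 102 CPM in shYEATS2 (−0.66 ± 0.06, edgeR adjusted p = 7.7e-14). Its relative INSIG2 was at 27.5 and 28.2 CPM against 24.9 and 23.6 CPM (−0.19 ± 0.09, edgeR adjusted p = 0.079), a separation that did not pass the test but did without shYEATS2 replicate 1 (−0.25), without the filter on low counts (−0.24) and after thinning (−0.30). Per kilobase, INSIG1 was at 6.02 and 6.22 times the level of INSIG2 in shControl and at 4.23 and 4.69 times in shYEATS2. SCAP, the escort protein that senses sterols, was at 66.2 and 67 CPM against 58.3 and 49.6 CPM (−0.29 ± 0.07, edgeR adjusted p = 8.2e-04). Of the 5 regulators, 3 were lower (60%), SREBF2 was higher (20%) and INSIG2 was not called. The shares of all tested genes were 23.6% lower and 22.6% higher, so the higher share was near that of all genes. The median of the regulators was −0.29, and −0.44 without shYEATS2 replicate 1.

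The 2 trafficking genes differed from each other. In a further list for sterol esterification, uptake and transport, 7 of 13 tested genes were lower (53.8%) and 3 higher (23.1%). Of all tested genes, 23.6% were lower and 22.6% higher. NPC1, which exports cholesterol from lysosomes, was at 79.3 and 85.5 CPM in shControl and at 107 and 102 CPM in shYEATS2 (0.35 ± 0.07, edgeR adjusted p = 1.2e-05). RMC1 overlaps NPC1 on the opposite strand and was also higher (0.46 ± 0.10), so the NPC1 counts are less certain. STARD4, a soluble sterol carrier and SREBP target, was at 42.6 and 41.6 CPM against 37.9 and 41.9 CPM, with overlapping groups (−0.09 ± 0.08, edgeR adjusted p = 0.368). STARD4-AS1, a transcript on the opposite strand, was at 7.8 and 6.14 CPM against 1.86 and 1.53 CPM (−2.0 ± 0.20, edgeR adjusted p = 3.8e-13).

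Of the 3 LXR targets, the efflux transporters ABCA1 and ABCG1 were higher (66.7%, beside 22.6% of all tested genes). ABCA1 stood at 74.4 and 74.2 CPM in shControl and at 86.8 and 86.6 CPM in shYEATS2 (0.22 ± 0.07, edgeR adjusted p = 0.004). The rise was small and the libraries of each group were nearly equal, though the call was lost without shControl replicate 1 (0.22) or shControl replicate 2 (0.21). ABCG1 was at 3.09 and 2.59 CPM against 6.28 and 6.19 CPM, a level 2.19-fold that of control (1.13 ± 0.18, edgeR adjusted p = 5.0e-07). The gene (ENSG00000160179) lies on the plus strand at chr21:42199689-42297244. The value rested on 140 and 98 counts in shControl and 159 and 73 counts in shYEATS2. MYLIP, a ligase that leads lipoprotein receptors to degradation, was at 9.59 and 8.39 CPM against 9.51 and 10.2 CPM, with overlapping groups (0.12 ± 0.13, edgeR adjusted p = 0.483).

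Within single libraries, the mean log2 level of the mevalonate enzymes exceeded that of the LXR genes by 2.52 and 2.63 in shControl and by 1.63 and 1.65 in shYEATS2. For the sterol enzymes the same difference was 1.69 and 1.77 against 0.86 and 0.82, and for the fatty-acid enzymes 4.0 and 4.17 against 3.14 and 3.08. A library's scaling factor hardly enters these differences, and gene length enters them equally in all libraries. In each case the groups did not overlap. The 3 comparisons share 1 LXR mean, so they are not separate results. That mean rests on 3 genes, ABCG1 (1.13), ABCA1 (0.22) and MYLIP (0.12), and ABCG1 had few counts. HMGCS1 (−1.33) had the largest change among the mevalonate enzymes. The difference between the mevalonate and the fatty-acid enzymes, by contrast, was −1.47 and −1.53 in shControl and −1.52 and −1.42 in shYEATS2, so the groups overlapped. The difference between the mevalonate and the sterol enzymes was 0.84 and 0.86 against 0.77 and 0.84.

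**Figure D4:**
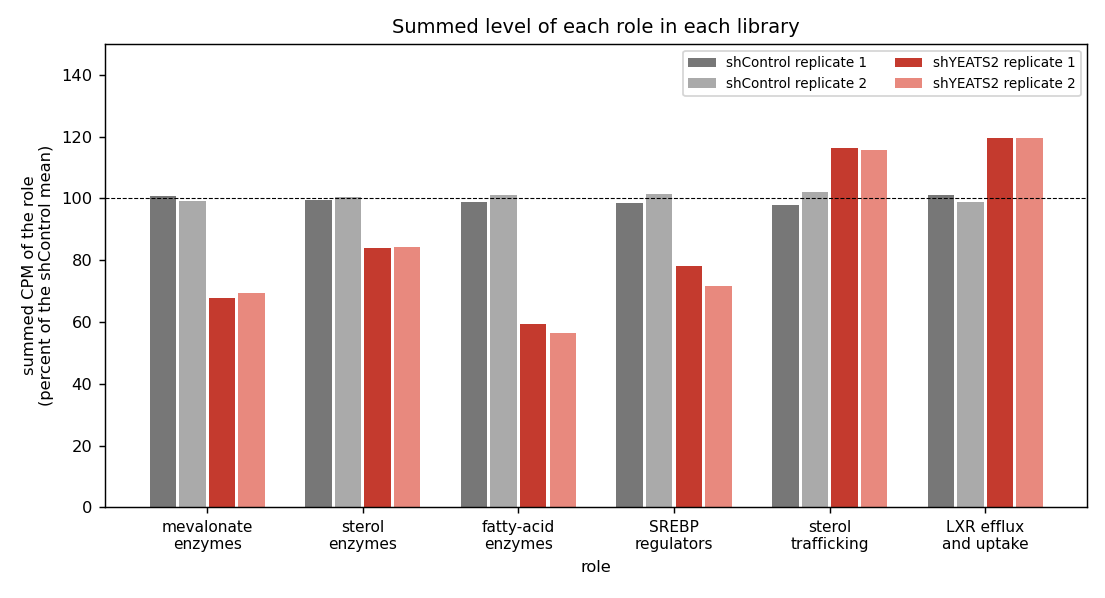
Summed CPM of each role in each library as a percentage of the shControl mean (vertical axis from 0; dashed line at 100). Both shYEATS2 libraries lie below both shControl libraries for the mevalonate, sterol and fatty-acid enzymes and the regulators (57.9% to 84.1% of control on average) and above them for trafficking and LXR genes (116% and 119%). Of the 2 trafficking genes, NPC1 was higher and STARD4 was not called.

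Further genes of these pathways, 94 in 7 lists, were examined in the same way. Of the 87 with enough counts for a test, 33 were lower (37.9%) and 13 higher (14.9%) by edgeR, beside 23.6% and 22.6% of all tested genes, with a median log2 fold change of −0.10. DESeq2 called 30 lower and 8 higher, beside its 17.3% and 16.5% of all tested genes. The genes that process and turn over the SREBPs had 7 of 12 lower (58.3%) and 2 higher (median −0.21). The prenyl, dolichol and ubiquinone branch, which leaves the mevalonate route at farnesyl pyrophosphate, had 1 of 14 lower (7.14%) and 3 higher (21.4%, near the share of all tested genes; median 0.06). ICMT, the methyltransferase of prenylated proteins, was lower (−0.42 ± 0.06) and DHDDS, a subunit of the enzyme that makes dolichol chains, higher (0.29 ± 0.08).

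Further sterol synthesis genes had 3 of 5 tested genes lower (60%) and 1 higher: AACS, which activates acetoacetate, was lower (−0.34 ± 0.08) and ACAT2, a thiolase, rose from 33.89 ± 0.891 to 48.82 ± 1.16 CPM (SD, n = 2; 0.52 ± 0.08 SE, edgeR adjusted p = 5.6e-08). Of the genes for sterol esterification, uptake and transport, 7 of 13 were lower (53.8%) and 3 higher (23.1%). For both lists the shares of all tested genes were 23.6% lower and 22.6% higher, so the higher calls were near their share. TMEM97, a sterol-regulated membrane protein that binds NPC1, fell from 63.47 ± 5.55 to 33.81 ± 2.82 CPM (SD, n = 2; −0.89 ± 0.08 SE, edgeR adjusted p = 4.2e-15), and OSBP, a sterol exchanger at the Golgi, rose (0.37 ± 0.06).

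Further fatty-acid genes had 11 of 23 lower (47.8%) and 2 higher (8.7%), beside 23.6% and 22.6% of all tested genes, with a median of −0.12. ACSL5, an acyl-CoA synthetase, fell from 28.11 ± 0.156 to 9.06 ± 0.695 CPM (SD, n = 2; −1.61 ± 0.11 SE, edgeR adjusted p = 6.5e-21), a larger fall than that of any of the 36 members. MID1IP1, which promotes the assembly of acetyl-CoA carboxylase, rose (0.56 ± 0.07). Glycerolipid synthesis had 3 of 12 lower (25%), near the share of all tested genes, and 1 higher, with GPAM, the mitochondrial acyltransferase that starts triglyceride synthesis, at −1.03 ± 0.07 and LPIN1, a phosphatidate phosphatase, at 0.17 ± 0.06. The LXR receptors and their further targets were mostly not called, with 1 lower, 1 higher and 6 not called of 8 tested (median −0.09). Each count is 12.5%, beside 23.6% lower and 22.6% higher of all tested genes. LPCAT3, a lysophospholipid acyltransferase and LXR target, was lower, from 61.71 ± 0.405 to 35.99 ± 0.855 CPM (SD, n = 2; −0.77 ± 0.08 SE, edgeR adjusted p = 1.2e-13). LPCAT3 thus went the other way from ABCA1 and ABCG1. APOE, the gene called higher, went the same way as they did (0.86 ± 0.35 SE, edgeR adjusted p = 0.039). Its mean was only 0.796 CPM in shControl and 1.43 CPM in shYEATS2, and DESeq2 did not call it.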

How the data were processed

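RNA-seq was performed on 4 libraries of BICR10 cells, 2 shControl and 2 shYEATS2, with groups taken from the labels. The authors prepared libraries with a stranded mRNA kit, aligned reads to GRCh38 with STAR, counted them per gene with HTSeq (tools per the labels, with FastQC) and deposited raw counts without normalization. The annotation and the strand setting of the counting are not given in the sources used here. Rows that name no gene held 15.34% to 16.48% of each library and were left out.

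Counts were filtered with edgeR's filterByExpr (17058 genes kept), scaled by TMM (factors 0.950 to 1.05) and tested by the quasi-likelihood method of edgeR 4.0.16 (robust glmQLFit, then glmQLFTest; R 4.3.3), with Benjamini-Hochberg adjustment over all tested genes and a threshold of 0.05. The common biological coefficient of variation was 4.95%. DESeq2 1.42.0 and limma-voom (limma 3.58.1) were alternatives, and the scripts were tested on simulated data. Log2 CPM used a prior count of 2. Gene positions and exon lengths came from GENCODE release 44, which held 60295 of the 60623 identifiers; 2 of the listed pathway genes were matched by gene ID.

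The members and gene lists were chosen with earlier results of these data known. From each further list, the text names the largest fall and the largest rise among genes that were called, averaged 10 CPM or more and had groups that did not overlap. Some genes that this rule selects are not reported here. STARD4-AS1, APOE and the overlapping genes were named after their values were seen. Replicate numbers were not used as a pairing. The replicate differences of the groups were uncorrelated over all tested genes (−0.0184). That value cannot exclude a pairing, as the counting noise of low genes enters it.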

Additional observations from a re-analysis of the deposited data

How the results depend on the processing

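Of the 36 members, 20 kept their call, or stayed uncalled, in each of the 11 to 13 alternatives run for them and 16 did not; 5 of the 20, uncalled throughout, changed sign. The cause of these changes was not tested. With library totals alone, 13 members were lower in place of 23, the medians were −0.15 for the mevalonate enzymes, −0.09 for the sterol enzymes, −0.38 for the fatty-acid enzymes, −0.15 for the regulators, 0.26 for trafficking and 0.36 for the LXR genes, and the signs turned for PMVK (0.02), FDFT1 (0.13), SQLE (0.07), NSDHL (0.09) and STARD4 (0.04). FDFT1 also turned with DESeq2's size factors (0.00), upper-quartile factors (0.01), DESeq2 (0.00) and limma-voom (0.00). Without a filter, which brings in many low genes and moves the median of all genes to −0.10, 3 members were higher in place of 5, as SREBF2 (0.12) and ABCA1 (0.17) were not called, and the medians were −0.33, −0.27, −0.56, 0.08 and 0.17 for the mevalonate, sterol, fatty-acid, trafficking and LXR genes. Thinned to the smallest total (14200 genes tested), 19 members were lower, and the medians were −0.21 for mevalonate, −0.17 for sterol, 0.18 for trafficking and 0.27 for LXR genes. Leaving out each library in turn, with the lone library taken to vary like the other group, gave 17 to 22 lower and 2 to 4 higher members. The same fits gave −0.24 to 0.01 for PMVK, −0.05 to 0.02 for FDFT1, and medians of −0.29 to −0.23 for sterol enzymes, −0.54 to −0.50 for fatty-acid enzymes and −0.44 to −0.20 for regulators. With a replicate block, which the numbers do not support as a pairing, the log2 fold change of HSD17B7 was −0.34 and its call was lost (adjusted p = 0.054), and no other member's call changed. YEATS2 was lower in each alternative. Depth limits TM7SF2, CYP51A1, HSD17B7 and ABCG1 most, with 7, 49, 72 and 73 counts in the shallowest library.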
